A study of Mus musculus with 12 samples.

Results

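Interferon beta and the interferon alpha family are the type I interferons, secreted proteins that cells release on meeting viral RNA. The 10 genes described here are Ifnb1 and 9 alpha genes, Ifna1, Ifna2, Ifna4, Ifna5, Ifna7, Ifna11, Ifna12, Ifna13 and Ifna14. They were chosen as the array probes whose RefSeq accession belongs to 1 of these symbols, which gave 12 probes for 10 of the 20660 named genes on the array, and all 10 were among the 15445 genes tested. Every one lies in the type I interferon cluster of mouse chromosome 4. The cells were mouse embryonic fibroblasts, of a homozygous GADD34ΔC/ΔC genotype (ΔC) or wild type (WT). ΔC is an allele of Ppp1r15a, the gene of GADD34, a regulatory subunit of protein phosphatase 1 that directs it to the translation factor eIF2α, and the allele is named for the loss of the C-terminal part. Cells received high molecular weight poly(I:C), which mimics viral double-stranded RNA, at 2.5 µg/ml by lipofection for 6 h, or were left untreated, so that the 4 groups were ΔC with poly(I:C), WT with poly(I:C), ΔC untreated and WT untreated. Each group had 3 arrays, 1 from each of 3 independent experiments. No sample treated with the lipid reagent alone was listed in the labels, so the lipid and the RNA cannot be told apart, and the labels do not say from how many embryos or clones either culture came.

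Double-stranded RNA in the cytoplasm is recognised by the RIG-I-like receptors, which signal through the adaptor MAVS to kinases that activate IRF3 and NF-κB. In mouse fibroblasts Ifnb1 and Ifna4 are known as the early genes that IRF3 can switch on directly, whereas most other alpha genes need IRF7, itself an interferon-induced factor, made during a second round of signalling through the interferon receptor. All type I interferons act on the same receptor, made of Ifnar1 and Ifnar2, and the alpha genes are close copies of one another. Because of that likeness a probe for 1 alpha gene may also bind the RNA of another, so that each alpha value below is the signal at a probe named for that gene and may hold RNA of its relatives.

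The upstream sequences show how far the family is split. RefSeq promoters (GRCm38.p6, from 250 bases before to 50 after the annotated start) were matched by symbol for 9 of the 10 genes, all but Ifna7. The 110 bases that end with the TATA-like box are given for Ifnb1 and Ifna4, the pair with the largest changes, for Ifna2 and Ifna11, whose upstream sequences are near copies of that of Ifna4, and for Ifna13, which lacks the match that the other 7 alpha promoters hold. Capitals mark GAAANNGA or its longer form GAAANNGAA (letters of an interferon regulatory factor element), GGGANNTTC (letters of an NF-κB element) and the box itself. They lie at chr4:88522871-88522980 on the minus strand (Ifnb1), chr4:88841661-88841770 on the plus strand (Ifna4), chr4:88683871-88683980 on the minus strand (Ifna2), chr4:88819758-88819867 on the plus strand (Ifna11) and chr4:88644485-88644594 on the minus strand (Ifna13).
Ifnb1: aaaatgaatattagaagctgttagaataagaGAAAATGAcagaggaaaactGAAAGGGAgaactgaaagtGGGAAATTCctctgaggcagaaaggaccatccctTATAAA
Ifna4: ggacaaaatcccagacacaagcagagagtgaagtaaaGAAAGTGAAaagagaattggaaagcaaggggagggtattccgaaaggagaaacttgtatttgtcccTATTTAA
Ifna2: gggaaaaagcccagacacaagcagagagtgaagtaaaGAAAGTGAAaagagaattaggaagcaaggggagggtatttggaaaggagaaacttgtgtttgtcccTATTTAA
Ifna11: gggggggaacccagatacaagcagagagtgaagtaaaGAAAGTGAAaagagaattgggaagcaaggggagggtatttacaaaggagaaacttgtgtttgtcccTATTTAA
Ifna13: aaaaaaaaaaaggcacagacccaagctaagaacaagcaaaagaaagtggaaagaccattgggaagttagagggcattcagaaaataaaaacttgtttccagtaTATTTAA

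In the whole promoter windows, searched on both strands, GAAANNGAA was found in 7 of the 8 alpha promoters and not in that of Ifnb1, against 8.56% of 32851 promoters in the table. In the stretches of Ifna4, Ifna2 and Ifna11 this match ends 57 bases before the box. The shorter GAAANNGA, which every GAAANNGAA contains, was also found in Ifnb1, at 2 places, and is held by 21.0% of all promoters. GGGANNTTC was found in Ifnb1 alone of the 9 genes, 25 bases before its box, against 3.94% of all promoters. Neither TGACNTCA (8.83% of promoters) nor TGANTCA (7.81%), the letters searched for AP-1 and ATF factors, was found in any of the 9. The search took only these letters, so a site that departs from them was not counted, and no match does not mean no site. TATAAA, searched on the gene's strand, was in Ifnb1 and Ifna13 (8.32% of promoters), and TATTTAA, a motif added after the sequences were read, was in all 8 alpha promoters (2.42% of promoters). Aligned over the 110 bases, Ifna2 and Ifna4 were 92.7% identical, Ifna2 and Ifna11 91.8%, and the 28 pairs of alpha promoters ranged from 63.5% to 92.7%. Ifnb1 was 54.2% to 57.5% identical to the alpha promoters. A match is a description of letters, and no binding was measured here.

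All 12 arrays were of similar quality, with 60.4% to 67.3% of probes well above background, and 0 spots were saturated. The number of arrays limits the precision of every value below. The Ppp1r15a probe, which checks the genotype labels, read 44.1, 2.71 and 5.23 in ΔC cells with poly(I:C) and 42434, 43823 and 43004 in WT cells with poly(I:C). In untreated cells it read 5.16, 2.43 and 14.2 in ΔC and 4814, 4728 and 7911 in WT, so both genotypes matched their labels on every array. Of 10 fibroblast markers 8 were well above background on all arrays and 1, Lum, on none. The summed intensity of the 10 was 236341 to 445429 in ΔC and 429704 to 504921 in WT with poly(I:C), and 226352 to 446745 in ΔC and 475977 to 542670 in WT untreated. Of the 9 tested, 2 (Col3a1 and Vim) were called lower in ΔC after poly(I:C) and 3, with Pdgfrb, untreated, and their part in the interferon values was not tested. Of 4 endothelial markers, Pecam1 and Kdr were above background on all arrays and the defining genes Cdh5 and Tek on none, with sums of 9522 to 13715 in ΔC and 11998 to 12474 in WT with poly(I:C), and 9493 to 12100 in ΔC and 11623 to 16999 in WT untreated. Of 9 leukocyte markers with a probe 7 were above background on all arrays, and their summed intensity was 81407 to 89340 in ΔC with poly(I:C), 88554 to 101978 in WT with poly(I:C), 74776 to 83734 in untreated ΔC and 90057 to 108035 in untreated WT. Most of that sum came from 1 of the 2 Siglech probes, and the part of the leukocyte and endothelial markers in the interferon values was not tested.

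The first question was what poly(I:C) did to the interferon genes of WT cells. Every gene of the set rose. Ifnb1 and Ifna4 changed most, Ifna12 and Ifna13 followed, and Ifna11 changed least. Values are scaled intensities, in which each array was brought to a common 75th percentile, and they are given in the order of experiments 1, 2 and 3. Intensities are compared between arrays for 1 probe and never between probes.

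Ifnb1, the single beta gene, read 84640, 73460 and 36686 in WT cells with poly(I:C), against 4.23, 3.14 and 5.76 in untreated WT cells. None of the untreated arrays was well above background, so the rise is a lower bound, at least 4930-fold (limma, adjusted p = 3.0e-06, n = 3 each). Such a bound sets the treated mean against the lowest signal that was well above background on each untreated array. Ifna4, the early alpha gene, read 6060, 6307 and 1100 with poly(I:C) and 2.88, 3.07 and 6.32 untreated in WT. It too was not well above background on any untreated WT array, and it rose at least 281-fold (limma, adjusted p = 1.3e-05). For both genes the poly(I:C) and untreated arrays lay far apart.

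Ifna12 read 4183, 4216 and 649.6 in WT cells with poly(I:C), against 31.4, 34.2 and 44.9 in untreated WT cells, a log2 change of 5.95 ± 0.60 (SE; 62.0-fold; limma, adjusted p = 0.00025). Ifna13 read 3788, 3450 and 661 with poly(I:C) and 70.6, 48.3 and 60.0 untreated, a log2 change of 5.12 ± 0.57 (34.8-fold; limma, adjusted p = 0.00050). Ifna2 read 5566, 5285 and 822 with poly(I:C) and 167, 169 and 205 untreated, a log2 change of 4.01 ± 0.59 (16.1-fold; limma, adjusted p = 0.0026). In all 3 genes the third WT poly(I:C) array was far below the other 2 and still above every untreated array. Ifna5 rose 14.4-fold, from probe readings of 8162, 7781 and 1335 with poly(I:C) against 311, 259 and 349.6 untreated. Ifna1 rose 8.84-fold, Ifna7 7.13-fold and Ifna14 6.24-fold, with limma adjusted p of 0.0089, 0.021 and 0.021. Ifna11 had the smallest change, with 84.6, 89.4 and 27.3 in WT cells with poly(I:C) and 16.7, 15.6 and 14.7 untreated, a 3.79-fold rise (limma, adjusted p = 0.042).

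In WT cells 10 of 10 genes were thus called higher, where 5.24% of all tested genes were called higher, and the median log2 change was 3.93 beside -0.14 for all genes. In 10 of 10 the poly(I:C) arrays did not overlap the untreated ones, against 12% of tested genes that lay apart in this direction. Of these 10, 8 were also well above background on all 3 untreated WT arrays, and Ifnb1 and Ifna4 passed the filter on low values only through poly(I:C) groups. The third WT poly(I:C) array lowered these changes. Without it the log2 changes were 6.85 for Ifna12, 5.94 for Ifna13, 4.92 for Ifna2, 4.71 for Ifna5, 3.98 for Ifna1, 3.72 for Ifna7, 3.45 for Ifna14 and 2.48 for Ifna11, and all 10 genes stayed called. Without the first or without the second WT poly(I:C) array 7 of 10 were called, with Ifna7, Ifna11 and Ifna14 past the threshold in neither case. With experiment number as a block, Ifna11 missed the threshold (limma, adjusted p = 0.055) and the other 9 calls stayed. With the slide as a block 4 of 10 genes were called, and with the scan day as a block 8 of 10. On the slide that held a WT array of each kind, all 10 changes were positive, with a median of 4.94.

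**Figure D1:**
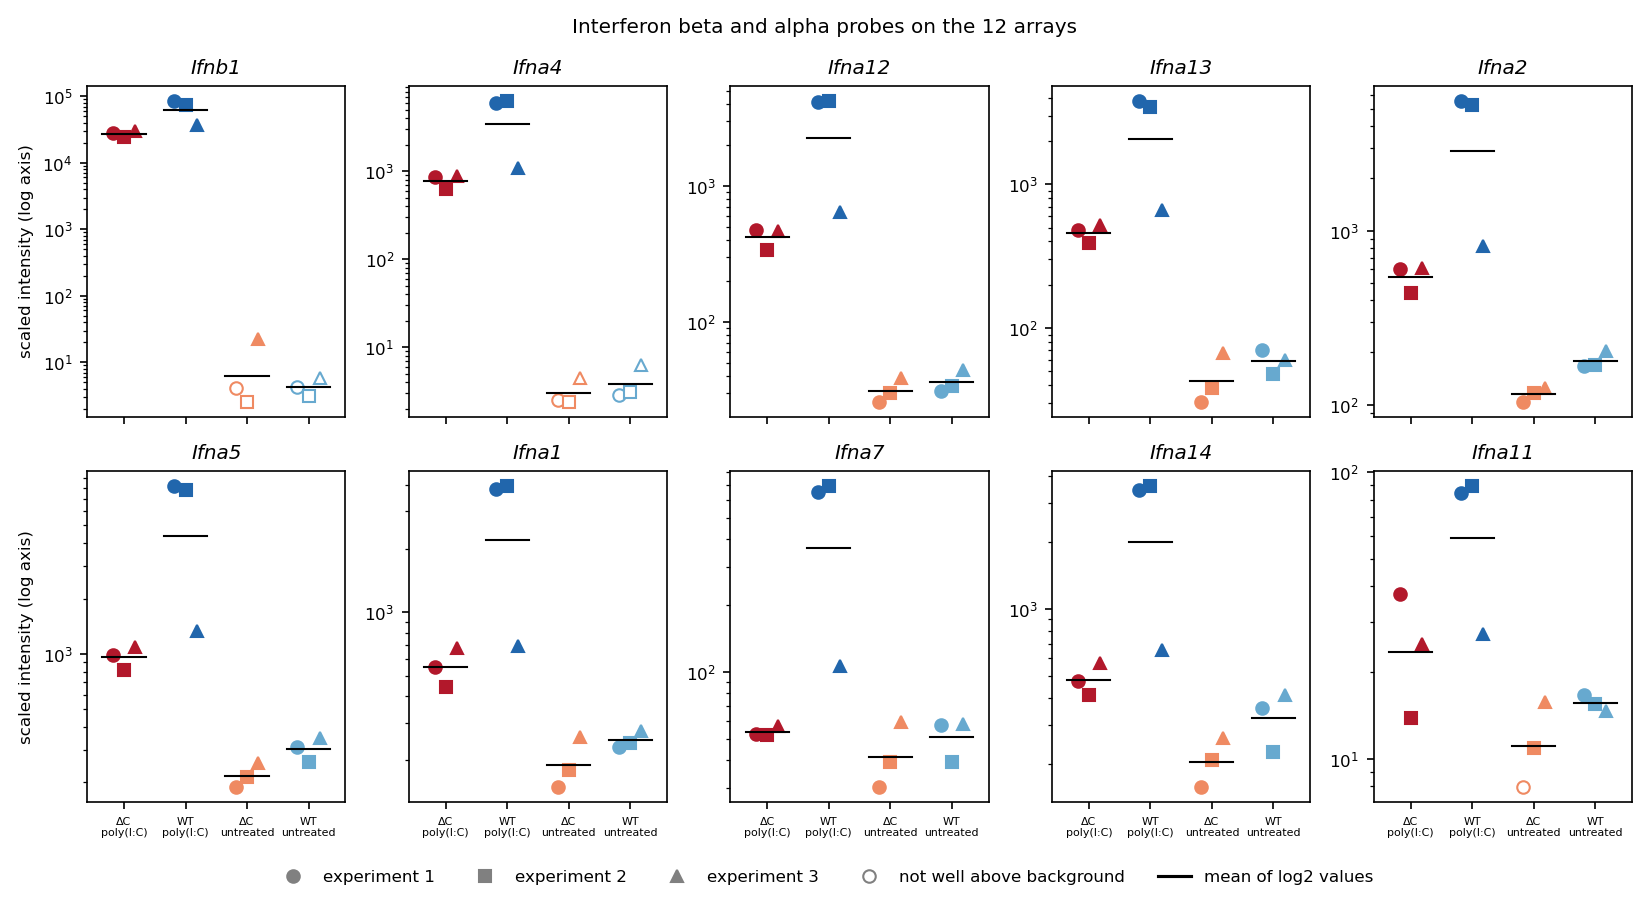
Scaled intensity (log axis, its range set for each gene) of the probe that stands for each gene, in ΔC with poly(I:C), WT with poly(I:C), ΔC untreated and WT untreated, with 1 symbol per experiment, open where the spot was not well above background, and a bar at the mean of the log2 values. Poly(I:C) arrays of WT lie above the untreated ones in every panel, and the WT poly(I:C) array of experiment 3 (blue triangle) lies nearer to the ΔC poly(I:C) arrays than to the other 2 WT poly(I:C) arrays in the alpha panels.

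The same question was asked of ΔC cells. Ifnb1 rose strongly there as well, and so did Ifna4, Ifna12 and Ifna13, while the other 6 alpha genes had positive changes that missed the threshold. Ifnb1 read 27794, 24398 and 29799 in ΔC cells with poly(I:C), against 4.13, 2.53 and 22.4 in untreated ΔC cells, of which the third alone was well above background. Its fitted log2 change was 12.11 ± 0.67 (limma, adjusted p = 1.3e-05), and it rests on untreated readings at or near background. Ifna4 read 858, 635 and 890.5 with poly(I:C) and 2.54, 2.39 and 4.50 in untreated ΔC cells, a rise of at least 71.1-fold (limma, adjusted p = 9.8e-05). The 3 ΔC poly(I:C) arrays were close to each other for both genes.

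Ifna12 read 477, 337 and 469 in ΔC cells with poly(I:C), against 25.9, 30.0 and 38.7 untreated, a log2 change of 3.76 ± 0.60 (13.6-fold; limma, adjusted p = 0.0088). Ifna12 missed the threshold with normexp background correction (2.31, adjusted p = 0.053) and with the mean of its 2 probes (2.10, adjusted p = 0.077). Ifna13 read 477, 390.0 and 517 with poly(I:C) and 30.7, 38.1 and 66.96 untreated, a log2 change of 3.42 ± 0.57 (SE; limma, adjusted p = 0.013). The Ifna13 call was lost without the first ΔC poly(I:C) array, or without the first or the second untreated ΔC array, with adjusted p from 0.061 to 0.069. Among the genes that missed the threshold, Ifna2 had 599.6, 441 and 608 with poly(I:C) and 104, 117 and 126 untreated, a log2 change of 2.24 ± 0.59 (limma, adjusted p = 0.12). The arrays of that gene did not overlap between treatments. Ifna5 had a log2 change of 2.14, Ifna1 of 1.53, Ifna14 of 1.23 and Ifna11 of 1.09, with limma adjusted p of 0.12, 0.36, 0.46 and 0.45. Ifna7 had the lowest value of the 10, with 52.3, 51.6 and 57.0 in ΔC cells with poly(I:C) and 30.1, 39.0 and 59.3 untreated. Its 2 treatments overlapped, and the log2 change was 0.38 with a 95% interval of -0.96 to 1.72 (limma, adjusted p = 0.86).

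In ΔC cells 4 of 10 genes were called higher, where 1.82% of all tested genes were, and all 10 changes were positive with a median log2 change of 2.19. In 8 of 10 the poly(I:C) and untreated arrays did not overlap, against 8.79% of tested genes, and Ifna7 and Ifna11 were the 2 that overlapped. With the slide or the scan day as a block 2 of 10 genes, Ifnb1 and Ifna4, were called. On the slide that held 1 ΔC array of each kind all 10 changes were positive, with a median of 2.46. Leaving out the third WT poly(I:C) array, which enters this comparison only through the shared estimate of spread, brought the count to 8 of 10.

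**Figure D2:**
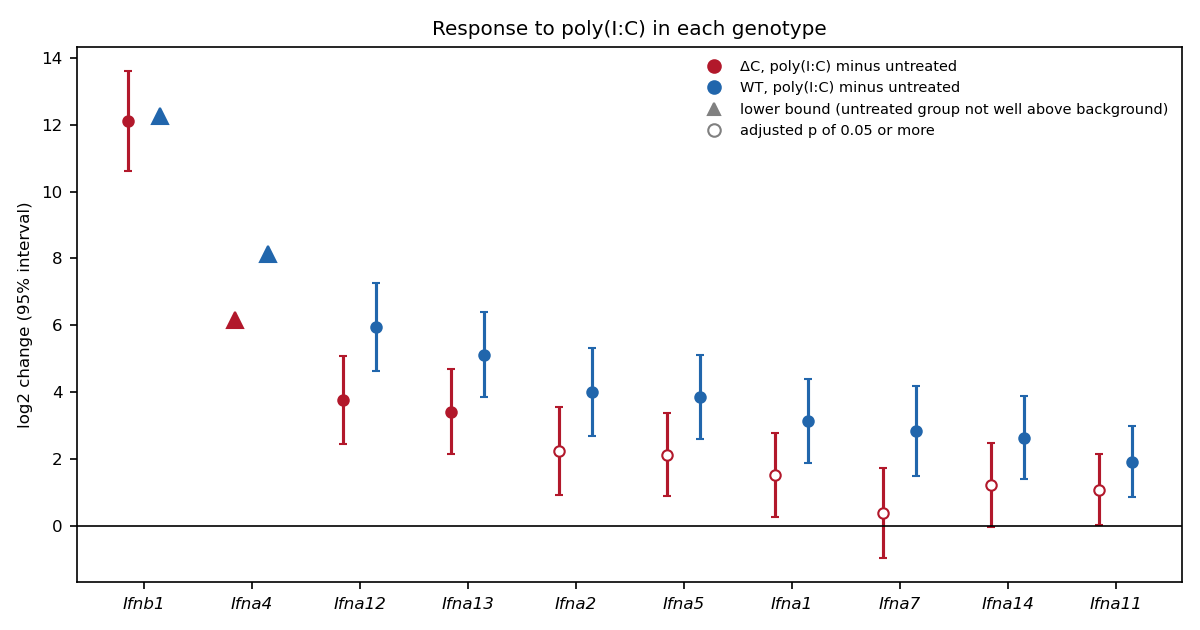
Log2 change of each gene with poly(I:C) over untreated cells in ΔC (red) and WT (blue), with 95% intervals, n = 3 arrays a group, filled where the limma adjusted p was under 0.05, and triangles where the untreated group was not well above background and the value is a lower bound. The 10 WT changes are all filled or bounds, against 4 of the 10 ΔC changes, and each ΔC point lies below the WT point of the same gene. For Ifna4 both points are lower bounds, and for Ifnb1 the WT point alone is. The points of Ifnb1 and Ifna4 therefore do not order their changes.

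In untreated cells no difference between the genotypes was called for any of the 10 genes. The count was 0 higher and 0 lower, where 10.9% and 10.2% of all tested genes were called in those directions, and 0 of the 10 had an unadjusted p under 0.05 in limma, beside 35% of all tested genes. Ifnb1 and Ifna4 were at background in both genotypes, apart from the reading of 22.4 for Ifnb1 on the third untreated ΔC array. Ifna2 was lower in ΔC on every array, with 104, 117 and 126 in ΔC against 167, 169 and 205 in WT, and Ifna5 likewise, with 188, 214 and 255 in ΔC against 311, 259 and 349.6 in WT. These were 2 of 10 genes whose groups did not overlap, a share near the 19.6% of all tested genes that lay apart in this direction. The log2 differences were -0.64 for Ifna2 (95% interval -1.95 to 0.66) and -0.48 for Ifna5 (-1.73 to 0.77).

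After poly(I:C), 8 of the 10 genes, all of them alpha genes, were called lower in ΔC than in WT cells, where 9.04% of all tested genes were called lower. The count was 1 when only the 2 groups compared were fitted and 0 with the slide as a block. All 10 log2 differences were negative, with a median of -2.15. Ifna7 had the largest difference, -2.76 ± 0.60 (6.77-fold lower; limma, adjusted p = 0.010), with 52.3, 51.6 and 57.0 in ΔC cells against 651, 693 and 106 in WT cells. Ifna12 was 5.33-fold lower and Ifna2 5.32-fold lower, with limma adjusted p of 0.017 and 0.016. Ifna5 was 4.59-fold, Ifna13 4.48-fold, Ifna4 4.43-fold, Ifna14 4.18-fold and Ifna1 3.99-fold lower, with adjusted p from 0.020 to 0.032. Ifna11 had 37.7, 13.9 and 25.1 in ΔC cells and 84.6, 89.4 and 27.3 in WT cells, and its log2 difference of -1.33 missed the threshold (limma, adjusted p = 0.077).

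Ifnb1 did not pass either. It read 27794, 24398 and 29799 in ΔC cells against 84640, 73460 and 36686 in WT cells, and every ΔC array was below every WT array. The log2 difference was -1.17 ± 0.67 (2.24-fold lower), with a 95% interval of -2.65 to 0.32 (limma, adjusted p = 0.25). Part of that SE came from the untreated arrays, since all groups share 1 estimate of spread and Ifnb1 was at background there. When levels were first raised to the lowest signal well above background the same difference had an adjusted p of 0.035, and without the third untreated ΔC array 0.037. Fitted with only the groups compared, which leaves the untreated arrays out, Ifnb1 was still not called. Of 27 alternatives 4 called it and 23 did not. Whether Ifnb1 differed less between genotypes than the alpha genes was not tested. In 9 of 10 genes, all but Ifna11, the ΔC and WT arrays did not overlap, against 18.9% of tested genes. In bulk RNA, fewer cells that made an interferon and less of its RNA per cell cannot be told apart.

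The WT poly(I:C) array of experiment 3 stood apart from the other 2, and the genotype comparison turns on it. At the 11 alpha probes it read 21.1% to 40.9% of the WT mean, against 125% to 144% on the first WT array and 131% to 143% on the second. The ΔC arrays were at medians of 18.1%, 14.2% and 19.6% of that mean over the same probes. For Ifnb1 the ΔC arrays read 42.8%, 37.6% and 45.9% of the WT mean and the third WT array 56.5%. The mean of the ΔC arrays was 0.506 to 0.935 of the third WT array at the alpha probes. The levels thus kept the same order with that array alone as the WT value. Gain over untreated cells of the same genotype, as a percent of the mean WT gain, did not keep it at every probe. The ΔC mean gain exceeded the third WT array at Ifna11 (27.2% against 22.7%). It also did so at the Ifna12 probe that does not stand for the gene (11.7% against 8.40%). At the other alpha probes it was lower. The other 799 genes called higher in WT were also lower on the third WT array, but less so, with a median log2 difference from the WT mean of -0.45 beside -1.66 for the 10 interferon genes. On the ΔC arrays the same medians were -0.38, -0.40 and -0.69 for the 799 genes and -2.09, -2.41 and -1.98 for the interferon genes. The 799 genes were called with the third WT array included, which favours genes with a smaller drop on it.

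Without the third WT poly(I:C) array 9 of 10 genes were called lower in ΔC, all but Ifnb1, and the alpha differences lay between -1.88 for Ifna11 and -3.65 for Ifna7. Without the first or without the second WT poly(I:C) array 1 of 10, Ifna7, was called. Without the first or the second ΔC poly(I:C) array 3 and 1 were called. A marker moved with the third WT experiment. Krt18, a keratin of simple epithelia, read 253, 189 and 2643 in WT cells with poly(I:C) and 179, 151 and 3265 in untreated WT cells, and 739, 1980 and 967 in ΔC cells with poly(I:C) and 1072, 2440 and 965 in untreated ΔC cells. Krt18 was the 1 of 4 epithelial markers above background on all arrays, and the summed intensity of the 4 was 933 to 2217 in ΔC with poly(I:C), 294 to 2690 in WT with poly(I:C), 1038 to 2690 in untreated ΔC and 227 to 3331 in untreated WT. Of these 4, Epcam and Cdh1 were called higher in ΔC both after poly(I:C) and untreated, and Krt8 lower untreated. Their part in the interferon values was not tested.

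Slides and scan days were not balanced over the groups. With the slide as a block 0 of 10 genes were called lower in ΔC after poly(I:C), and with the scan day as a block 5 of 10. The third WT poly(I:C) array shared its slide and its scan day only with an untreated ΔC array, so that this array and its batch cannot be told apart. On the slide that held the first poly(I:C) arrays of both genotypes, all 10 differences were negative, from -3.64 to -1.17 with a median of -2.93, and within the first scan day, with 1 ΔC and 2 WT arrays, the median was -2.91.

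**Figure D3:**
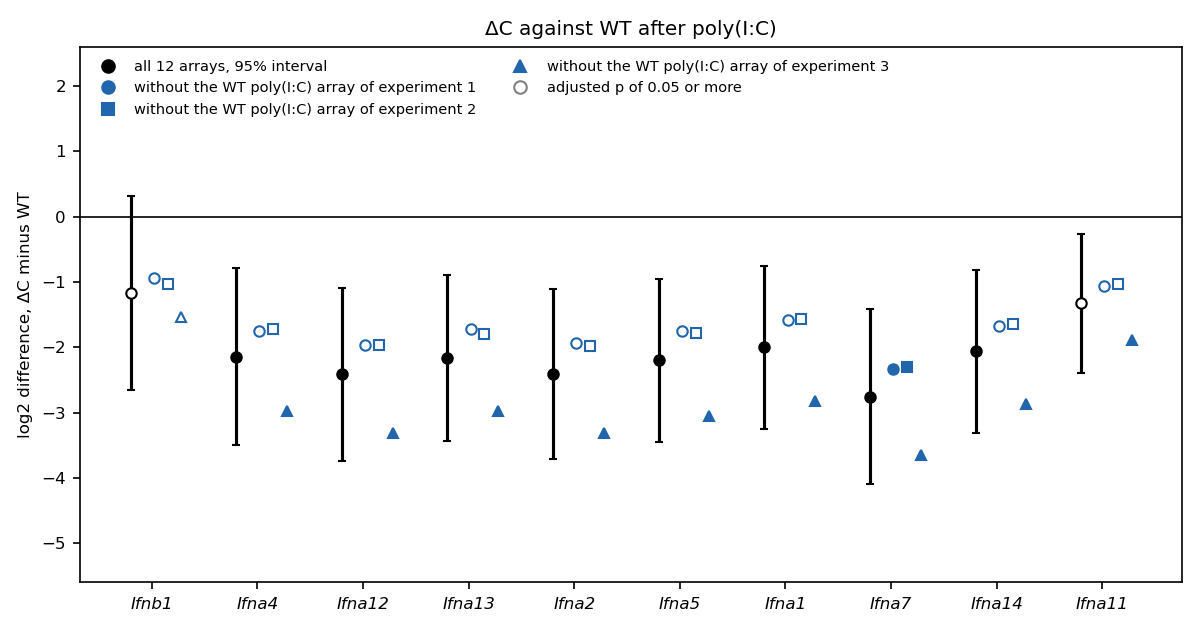
Log2 difference of ΔC minus WT after poly(I:C) for each gene, with 95% intervals over all 12 arrays (black, n = 3 a group) and after leaving out 1 WT poly(I:C) array at a time (blue, the symbol naming the experiment left out), filled where the limma adjusted p was under 0.05. All values lie below 0. Leaving out experiment 3 moves every gene further down, and leaving out experiment 1 or 2 leaves Ifna7 filled and the rest open.

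**Figure D4:**
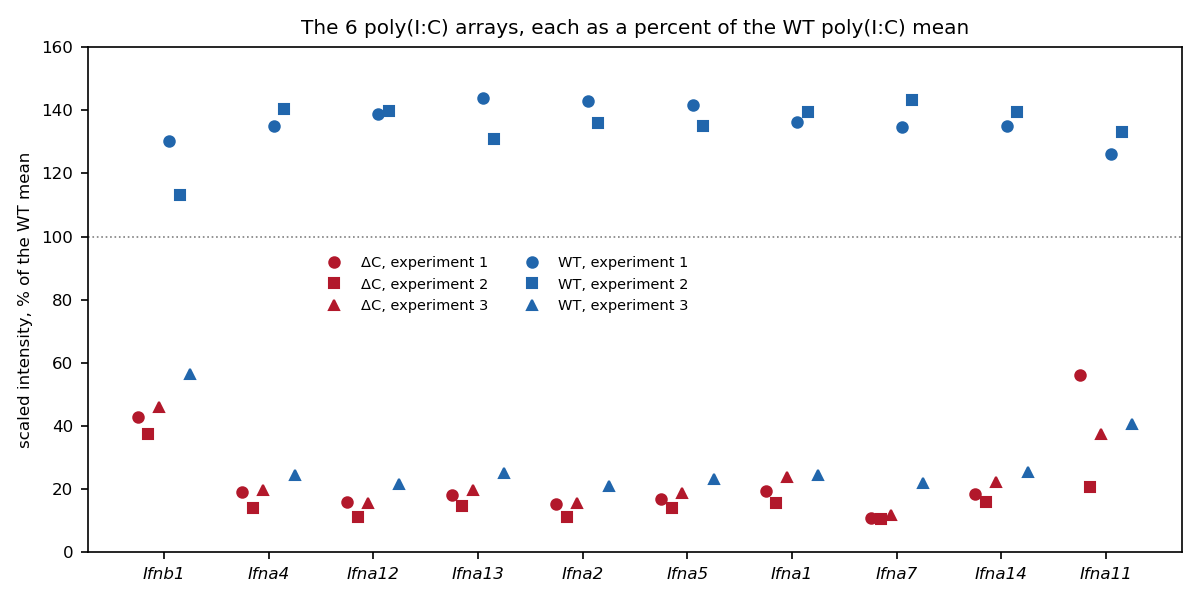
Scaled intensity on the 6 poly(I:C) arrays as a percent of the WT poly(I:C) mean of the same gene, ΔC in red and WT in blue, with 1 symbol per experiment. For Ifnb1 the ΔC arrays lie between 37.6% and 45.9%, and for Ifna7 at up to 11.8%. The blue triangles of experiment 3 lie above the ΔC arrays for every gene but Ifna11.

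The last comparison asked whether the responses themselves differed, as the ΔC change minus the WT change. All 10 values were negative, with a median of -1.71 on the log2 scale, and 0 of 10 were called by limma, where 0.0129% of all tested genes were called lower. Ifna7 (-2.45 ± 0.85) and Ifna12 (-2.19 ± 0.84) had an unadjusted p under 0.05, as did 5.41% of all tested genes, with adjusted p of 0.67 and 0.80. Ifnb1 had -1.70 ± 0.94, with a 95% interval of -3.80 to 0.39. Without the third WT poly(I:C) array 8 of 10 were called lower, all but Ifnb1 and Ifna11, with adjusted p from 0.00060 for Ifna2 to 0.038 for Ifna4. On the intensity scale the mean gain over untreated cells in ΔC was 42.1% of that in WT for Ifnb1 and 17.6% for Ifna4, and the 11 alpha probes had a median of 13.3%. These shares depend on the first and second WT arrays. Over the 11 alpha probes the median gains were 139%, 143% and 18.9% of the mean WT gain on the WT arrays. On the ΔC arrays they were 14.0%, 9.59% and 16.0%. For Ifnb1 the gain on the third WT array was 56.5%.

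Genes with more than 1 probe show how much a value depends on the probe. The second Ifna2 probe read 75.5, 47.2 and 70.4 in ΔC and 656, 703 and 112 in WT with poly(I:C), a log2 difference of -2.56 beside -2.41 for the first. The 2 Ifna12 probes disagreed on size. The second read 155, 148 and 141 in ΔC and 563, 604 and 184 in WT with poly(I:C), and 83.1, 99.96 and 159 in ΔC and 153, 115 and 212 in WT untreated. Its WT response was 1.36 on the log2 scale, with an adjusted p of 0.11 in limma, beside 5.95 for the probe that stands for the gene. Its ΔC response was 0.43 (adjusted p = 0.83) beside 3.76, with arrays that overlapped between treatments in both genotypes, and its genotype difference after poly(I:C) was -1.43 beside -2.42. Probe sequences were not used here, so which transcripts each probe binds was not examined.

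Across the 12 arrays, with levels first raised to the lowest signal well above background, the alpha genes followed one another. Pearson's r between alpha genes ranged from 0.75 for Ifna4 and Ifna7 to 0.9986 for Ifna2 and Ifna5. The lowest r of Ifnb1 with an alpha gene was 0.63, with Ifna7. All were taken over arrays that share 4 groups and the array that stood apart. Among genes outside the set, the 5 whose pattern was most like that of Ifnb1 were Il6 (r = 0.993), Gbp5 (0.993), H1f2 (0.991), Ccl5 (0.991) and Cxcl10 (0.988). For Ifna4 they were Ccl4 (0.993), Ifna16 (0.989), Gbp5 (0.988), Cxcl10 (0.987) and Ccl5 (0.986). Of the 10 lists of 5, Ifnab was in 5, Krt16 in 4 and Acod1 and Ifna16 in 3 each. These r values describe the 12 arrays and carry no test.

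Of 11 other interferon genes listed, 6 had a named probe and 3 were tested. Ifna16, a further alpha gene, read 314, 219 and 302 in ΔC and 2171, 2189 and 368 in WT with poly(I:C), and 11.3, 11.8 and 24.6 in ΔC and 17.4, 13.2 and 26.3 in WT untreated. It rose in both genotypes, by 4.21 in ΔC and 6.05 in WT on the log2 scale, and was lower in ΔC after poly(I:C) by a log2 difference of -2.13 (limma, adjusted p = 0.035). Ifnab rose in WT by 3.74, missed the threshold in ΔC and differed by -2.12 between genotypes after poly(I:C) (adjusted p = 0.024). The third, Ifnl3, of the lambda family that acts on another receptor, had a log2 change of 0.01 in WT. Ifnz, also on this list, was not among the 3 under that symbol. Its synonym Gm13271 was tested and went the other way from Ifna16 and Ifnab. It was higher in ΔC after poly(I:C), by a log2 difference of 0.99 (limma, adjusted p = 0.0077), and is described in the closing section.

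Among 14 genes of sensors, adaptors and kinases that lead to interferon transcription, 3 rose with poly(I:C) in ΔC and 6 in WT, where 1.82% and 5.24% of all tested genes were called higher. Ifih1, which encodes the long double-stranded RNA sensor MDA5, rose by 3.33 ± 0.42 in ΔC and 6.31 ± 0.42 in WT on the log2 scale. It was already higher in untreated ΔC cells, with 975, 821 and 668 in ΔC against 115, 85.6 and 201 in WT (log2 difference 2.69; limma, adjusted p = 0.0017), and after poly(I:C) its difference was -0.29 (adjusted p = 0.67). Ddx58, the gene of RIG-I, rose by 2.48 in ΔC and 3.76 in WT. Tlr3, the endosomal double-stranded RNA receptor, was higher in untreated ΔC cells by 2.38 and rose in WT by 5.14. Sting1, the adaptor of the DNA sensor cGAS, was lower in ΔC both after poly(I:C) (-0.90) and untreated (-0.82). In all, 0 of the 14 were called higher in ΔC after poly(I:C) and 3 lower, where 11.9% and 9.04% of all tested genes were. Those 3 were Dhx58 (-1.62), Trim25 (-1.47) and Sting1, with limma adjusted p of 0.036, 0.024 and 0.0023. Untreated, 3 of the 14 were called higher in ΔC and 2 lower, where 10.9% and 10.2% of all tested genes were.

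Of 12 transcription factors and cofactors of the interferon promoters, 1 rose in ΔC and 4 in WT, beside the same 1.82% and 5.24% of all tested genes. Irf3, the factor that starts Ifnb1 transcription and is controlled by phosphorylation, had log2 changes of 0.24 in ΔC and 0.09 in WT, with adjusted p of 0.41 and 0.55 in limma. Irf7, the factor of the second round, read 3443, 2673 and 548 in ΔC and 11399, 13231 and 3122 in WT with poly(I:C), and 233, 196 and 114 in ΔC and 141, 178 and 84.6 in WT untreated. Irf7 rose in WT by 5.92 ± 0.73, its change of 3.31 in ΔC missed the threshold (adjusted p = 0.053), and so did the difference of -2.18 between genotypes after poly(I:C) (0.058). For Irf7 the third experiment was the lowest in both genotypes and in both treatments. Irf1 rose by 1.88 in ΔC and 3.12 in WT and was lower in ΔC after poly(I:C) by -1.52 (limma, adjusted p = 0.0073). Irf5 was higher in untreated ΔC cells by 1.81, and Irf8, a factor of the myeloid lineage, was at least 48.0-fold higher there (limma, adjusted p = 0.0023), with 1135, 1244 and 149 in ΔC and 6.85, 3.52 and 11.4 in WT.

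Of 9 genes that restrain induction or signalling, 2 rose in ΔC and 4 in WT, again beside 1.82% and 5.24% of all tested genes. Usp18, a protease that damps the interferon receptor, rose by 4.80 in ΔC and 7.83 in WT and was lower in ΔC after poly(I:C) by -2.01 (limma, adjusted p = 0.018). Tnfaip3, the NF-κB inhibitor A20, rose by 3.52 in ΔC and 3.82 in WT. Socs1, which inhibits receptor kinases, was lower in ΔC after poly(I:C) by -1.83, and Otud5, a deubiquitinase of the adaptor TRAF3, by -1.21. In all, 4 of these 9 were called lower in ΔC after poly(I:C) and 0 higher, beside 9.04% and 11.9% of all tested genes. Of the genes of the receptor and its signalling, Stat2 and Irf9, which encode transcription factors that act downstream of the receptor, rose in both genotypes. Stat2 rose by 2.54 in ΔC and 4.31 in WT on the log2 scale, and Irf9 by 2.24 in ΔC and 3.19 in WT. Irf9 was lower in ΔC after poly(I:C) by a log2 difference of -0.70 (limma, adjusted p = 0.035). Of the receptor chains, Ifnar1 had log2 changes of -0.30 in ΔC and -0.45 in WT and Ifnar2 of -0.02 in both, and 0 of these 4 changes were called. The difference between the 2 responses was called by limma for 0 genes of these 5 lists, and an unadjusted p under 0.05 was reached by 0 of 3 further interferon genes, 5 of 14 induction genes, 4 of 12 promoter factors, 2 of 9 restraining genes and 3 of 7 receptor genes, beside 5.41% of all tested genes.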

How the data were processed

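RNA of 12 cultures was labelled with Cy3 and hybridised to Agilent arrays, 1 per culture. Per the file headers, the deposited scanner files hold intensity values read with Feature Extraction 10.7.3.1, background-subtracted, with flags for spots well above background. A value table deposited by the authors, with 1 log2 value per probe, was used as an alternative. Its 12 columns share a median of 5.28, and its centring and steps are not given in the sources used here. Limma was used, per the submitters' processing notes. The table's column for the first ΔC poly(I:C) array correlated at 0.949 with that array and best with the first untreated WT array (0.974), the others at 0.9990 or more.

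The log2 of each processed intensity was averaged over the spots of a probe, and the 75th percentile of the array was subtracted. Scaled intensity is that value at the arrays' mean percentile (767.863). Control and outlier spots were left out, and 107 probes with outlier flags on every spot of an array. RefSeq accessions named 27235 of 55681 probes. Genes entered the fit if at least 1 group had all 3 spots of a probe flagged well above background, and where several probes passed, the brightest by mean log2 level represented the gene. Limma 3.58.1 in R 4.3.3 fitted 1 mean per group, and genes were called at a Benjamini-Hochberg adjusted p under 0.05. Intervals are 95%. P-values measure the spread between experiments. Same-numbered arrays deviated together (r from 0.115 to 0.651 in 12 pairs), and the labels number the experiments alike in each group. Arrays numbered 1 and 2 in different groups had r from -0.0076 to 0.266, which overlaps that range. Pairs of an array numbered 3 with another number all had negative r. The text names all 10 members, up to 3 called genes of each list per comparison, and 6 genes in any case. Promoters were aligned with Biopython 1.88. The members and lists were chosen with earlier results of these data known. The alternatives tried are given in the closing section. The fit was tested on simulated data.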

Additional observations from a re-analysis of the deposited data

How the results depend on the processing

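Counts of the 10 genes were recomputed under each alternative, beside 10 called higher in WT, 4 higher in ΔC, 0 between untreated genotypes, 8 lower in ΔC after poly(I:C) and 0 for the difference of responses. The share of all tested genes called under each alternative is not given. No member changed sign where it was called, and the cause of each changed count below was not tested. Fitting only the groups compared gave 6, 6, 1 and 1 for the first 4 comparisons. With the slide as a block they were 4, 2, 0 and 0, and with the scan day 8, 2, 0 and 5. The authors' table gave 0 in ΔC and 3 after poly(I:C), and 4 and 3 without its mismatched column, an alternative chosen after seeing the data. After poly(I:C), normexp background correction gave 10 lower in ΔC, and median scaling, quantile normalization and levels raised to the lowest signal well above background gave 9. No filter on dim probes, a trended and robust fit, averaging the probes of each gene and fitting every probe on its own gave 8. Of these 8 alternatives, normexp and averaged probes gave 3 higher in ΔC and the rest 4, no filter and every probe 9 higher in WT and the rest 10, and all gave 0 between untreated genotypes and for the difference. Without all 4 arrays numbered 3 the counts were 10, 8, 4, 10 and 8. Leaving out 1 array at a time gave 7 to 10, 3 to 8, 0 to 1, 1 to 9 and 0 to 8. The experiment number as a replicate block gave 9, 4, 0, 8 and 0, with Ifna11 in WT at an adjusted p of 0.055, and changed no other call. In the authors' table the ΔC minus WT difference after poly(I:C) was -0.72 for Gm13272, -0.61 for Gm13275 and -0.39 for Gm13286, each opposite in sign to the scanner files, and without its mismatched column 1.03, 1.05 and 0.84. Background limits Ifnb1 and Ifna4 in untreated cells, where all but 1 Ifnb1 reading were not well above it.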

Other observations

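In the same stretch of chromosome 4, Gm13271 (Ifnz by synonym), Gm13272, Gm13275 and Gm13286 were higher in ΔC than in WT cells after poly(I:C), and they were singled out after their values were seen. Gm13272 read 15075, 15980 and 8076 in ΔC and 5866, 5851 and 5799 in WT with poly(I:C), and 2089, 2339 and 1840 in ΔC and 1213, 1051 and 926 in WT untreated. It rose in both genotypes, by 2.59 ± 0.23 in ΔC and 2.47 ± 0.23 in WT on the log2 scale, and was higher in ΔC after poly(I:C) by 1.10 (limma, adjusted p = 0.0090). Gm13275 was higher in ΔC after poly(I:C) by 1.14, Gm13286 by 1.01 and Gm13271 by 0.99, with limma adjusted p of 0.0094, 0.011 and 0.0077. All 4 rose in both genotypes. On these probes the third WT poly(I:C) array did not stand apart, with 5799 beside 5866 and 5851 for Gm13272, and the third ΔC array was the lowest of its group. With the authors' values 0 of the 4 were called and 3 had the opposite sign. Without the mismatched column of their table all 4 were called again, with differences from 0.84 to 1.05. The calls also depended on other settings, although the differences stayed positive in those that follow. Median scaling called 0 of the 4, and so did the slide as a block. Only Gm13272 was called with the scan day as a block. Gm13286 missed the threshold when only the groups compared were fitted. Which of these genes gave the signal was not tested.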
